A study of Homo sapiens with 4 samples.

Results

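Unannotated genes are loci that the deposited extended annotation adds to the reference annotation, each with an identifier beginning BambuGene. They were taken by that identifier from the gene count table. There were 786 of them among 77973 genes, beside 77186 annotated genes and 1 further gene with no strand that is no member. They held 819 transcripts. Reads came from long-read PacBio sequencing of complementary DNA from polyadenylated RNA of i3N cortical neurons. All libraries came from a KOLF2.1J-derived line, an established pluripotent cell line of human origin that makes human NGN2 under a doxycycline-inducible promoter, so neurons were driven by 1 transcription factor, and that constitutively carries a dCas9-BFP-KRAB CRISPRi construct. The control received a non-targeting guide RNA and no drug. The TDP-43 CRISPRi (knockdown) library received a guide against TDP-43, which binds RNA and keeps cryptic exons out of transcripts. The 5-Azacytidine library received the non-targeting guide and 5 µM of this DNA methylation inhibitor for 72 hours, and the fourth library received the TDP-43 guide and the drug. Guides were delivered by lentivirus to stem cell pools selected with puromycin before differentiation, and the labels give harvest on day 12 or day 15 without saying which applies to these libraries. With 1 library in each group, none of the differences given here could be checked against replicates.

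A transcript discovery program calls an unannotated gene where spliced reads form a transcript that cannot be assigned to an annotated gene by its exons and junctions. Such loci commonly include antisense transcripts, which run over a gene from the other strand, and divergent transcripts, which start near an active promoter and run away from its gene. CpG-rich promoters often start transcription in both directions. Other such loci lie within introns, where a short transcript can be made from its own start or come from a partly spliced precursor.

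The starts of 48 unannotated genes fell in a RefSeq promoter window, which runs from 250 bases before to 50 bases after an annotated start (GRCh38.p14), and 38 of the 48 ran on the opposite strand. The 4 of these 38 with the most reads are shown, because they place the start of the unannotated RNA against the promoter of its neighbour. Each window is printed 5′ to 3′ on the strand of the annotated gene, and capitals mark the bases that lie in the first exon of the unannotated gene, which runs towards the left. CCDC169 encodes a coiled-coil protein, SRXN1 is sulfiredoxin, which reduces oxidised peroxiredoxins, ABL1 is a tyrosine kinase, and FAM156A is a gene of little known function.
CCDC169 window, chr13:36297765-36298064, minus strand, start of BambuGene1638: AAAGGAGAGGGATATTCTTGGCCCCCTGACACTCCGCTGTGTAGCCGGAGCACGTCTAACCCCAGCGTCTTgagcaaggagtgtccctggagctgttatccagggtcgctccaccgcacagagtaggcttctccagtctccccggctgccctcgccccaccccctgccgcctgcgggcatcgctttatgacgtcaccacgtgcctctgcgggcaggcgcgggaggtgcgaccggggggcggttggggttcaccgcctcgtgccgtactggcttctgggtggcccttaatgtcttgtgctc
SRXN1 window, chr20:653151-653450, minus strand, start of BambuGene3958: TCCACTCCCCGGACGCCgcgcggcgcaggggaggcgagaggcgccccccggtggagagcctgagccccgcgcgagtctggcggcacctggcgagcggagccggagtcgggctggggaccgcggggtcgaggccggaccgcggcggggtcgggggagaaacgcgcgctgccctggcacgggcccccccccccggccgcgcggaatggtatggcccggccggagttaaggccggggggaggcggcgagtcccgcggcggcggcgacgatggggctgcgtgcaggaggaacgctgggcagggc
ABL1 window, chr9:130835004-130835303, plus strand, start of BambuGene7332: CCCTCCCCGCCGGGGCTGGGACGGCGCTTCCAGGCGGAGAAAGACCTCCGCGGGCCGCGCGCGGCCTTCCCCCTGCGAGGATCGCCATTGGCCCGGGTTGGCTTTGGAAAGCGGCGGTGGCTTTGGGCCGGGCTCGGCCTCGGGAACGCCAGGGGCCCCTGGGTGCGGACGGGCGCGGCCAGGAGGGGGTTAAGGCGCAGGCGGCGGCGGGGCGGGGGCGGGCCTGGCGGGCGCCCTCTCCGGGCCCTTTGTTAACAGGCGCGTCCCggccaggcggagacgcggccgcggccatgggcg
FAM156A window, chrX:52958424-52958723, minus strand, start of BambuGene7417: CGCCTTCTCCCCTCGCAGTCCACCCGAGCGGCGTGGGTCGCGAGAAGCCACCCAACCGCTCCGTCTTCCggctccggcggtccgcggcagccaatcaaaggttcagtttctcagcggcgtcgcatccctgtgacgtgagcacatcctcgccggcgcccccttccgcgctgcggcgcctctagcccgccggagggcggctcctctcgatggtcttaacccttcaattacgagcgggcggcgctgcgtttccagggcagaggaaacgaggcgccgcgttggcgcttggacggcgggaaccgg

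BambuGene1638 began 180 bases before the RefSeq start of CCDC169, BambuGene3958 began 234 bases before that of SRXN1 and BambuGene7417 began 182 bases before that of FAM156A. Of the 3 transcripts of BambuGene7332, BambuTx10295 began at position 267 of the ABL1 window, past the RefSeq start, and had 2.5 estimated reads over the libraries. The capitals of that window hold for BambuTx10295 alone, since BambuTx5658, with 4.5 estimated reads, and BambuTx9314, with 1, both began before the RefSeq start. These windows held 22, 46, 42 and 42 CG dinucleotides in the order printed. Over the 38 opposite-strand windows the median was 33.5, against 14 over all 35116 RefSeq windows of 300 bases. At least 20 CG dinucleotides were present in 92.1% of the 38 windows and in 41.2% of all windows. All windows were not limited to genes with reads in these libraries, and promoters of such genes were not compared apart. The motif searched was CG, which reads the same on both strands. The 4 genes were low: BambuGene1638 had 10 reads in the control, 4 in the knockdown, 1 in the azacytidine library and 1 with both, and BambuGene3958 had 0, 3, 2 and 4 in that order. BambuGene7332 had 2, 1, 3 and 2 reads, and BambuGene7417 had 1, 4, 0 and 3. BambuGene1638 was lower in both azacytidine libraries, and BambuGene3958 and BambuGene7417 were higher in both knockdown libraries, by a few reads each. None of the 4 had enough reads to be tested.

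The name "outside the annotation" held for a minority of these genes. The span of 622 (79.1%) overlapped the span of an annotated gene on either strand, and 164 lay outside every annotated span. Of those 164, 36 overlapped a RefSeq gene span, leaving 128 outside both. By position, 347 (44.1%) were antisense, overlapping an annotated gene on the opposite strand alone. A further 275 (35.0%) overlapped an annotated gene on their own strand, 28 (3.56%) were divergent, with starts within 1000 bases of an opposite-strand start, 19 (2.42%) began within 5000 bases past the end of a same-strand gene, and 117 (14.9%) were other intergenic genes.

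Antisense genes faced 342 annotated genes, and for 271 of 347 the opposite gene was protein coding. An exon lay over an opposite-strand exon in 196 of them. Of the 275 same-strand genes, 236 lay wholly inside the span of an annotated gene, and 1 of the 275 had an exon that touched an annotated exon of that strand. The remaining 39 reached past the annotated span or enclosed it. They fell in 265 annotated genes, of which 257 held 1 such gene, 6 held 2 and 2 held 3. PTPRN2, a receptor-type phosphatase of secretory vesicles, and CUX1, a homeobox factor of upper-layer cortical neurons, held 3 each.

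Many starts lay close to annotated starts of the opposite strand. An opposite-strand annotated start lay within 1000 bases for 110 unannotated genes and within 100 bases for 13. In 64 of the 110 the 2 transcripts ran away from each other, and in 46 the annotated start lay downstream of the unannotated start and faced it. In the next 1000 bases, 30 genes had an opposite-strand start more than 1000 and up to 2000 bases away. A same-strand start lay within 1000 bases for 13 genes. A transcript that shares exons with a same-strand gene is assigned to that gene, and the part of this in the number was not tested. Of the 110, 68 were classed as antisense, 28 as divergent and 14 as same-strand genes.

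**Figure D1:**
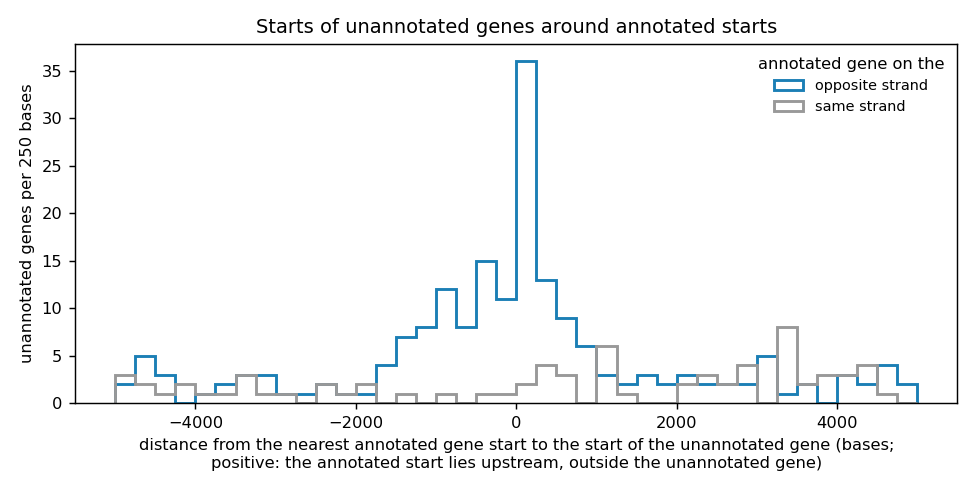
Distance in bases from the nearest annotated start to the start of each unannotated gene (horizontal axis) and the number of genes per 250 bases (vertical axis), for annotated genes on the opposite strand (blue) and the same strand (grey); positive distances are transcripts that run apart. Opposite-strand starts peak just right of 0, where the pairs running apart lie, and same-strand starts are few. Transcripts that share exons with a same-strand gene are assigned to it, and the part of this was not tested.

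The transcripts were short chains of exons. No transcript had 1 exon, and 653 of 819 (79.7%) had 2, against 12.7% of 65775 annotated multi-exon transcripts with at least 1 read. The longest chain had 9 exons. Transcript length was much alike, with a median of 2220 bases against 2313. The 1072 introns had a median of 1347 bases, against 1871 for 217890 annotated introns.

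Introns under 70 bases, shorter than nearly all human introns that the spliceosome removes, made up 93 of 1072 (8.68%), against 0.0675% of annotated introns. They were 12.6% of introns in same-strand genes, 6.40% in antisense genes, 9.68% in other intergenic genes, 11.1% in downstream genes and 2.44% in divergent genes. In 86 genes every intron was this short. Those 86 genes had 109 reads in the control, 183 in the knockdown, 32 in the azacytidine library and 47 with both, and the other 700 genes had 1022, 1546, 694 and 628. The short-intron genes therefore held a small part of the reads in every library. No unannotated intron shared a splice end with an annotated intron on either strand, and 4 lay within 10 bases of an annotated intron of the opposite strand.

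**Figure D2:**
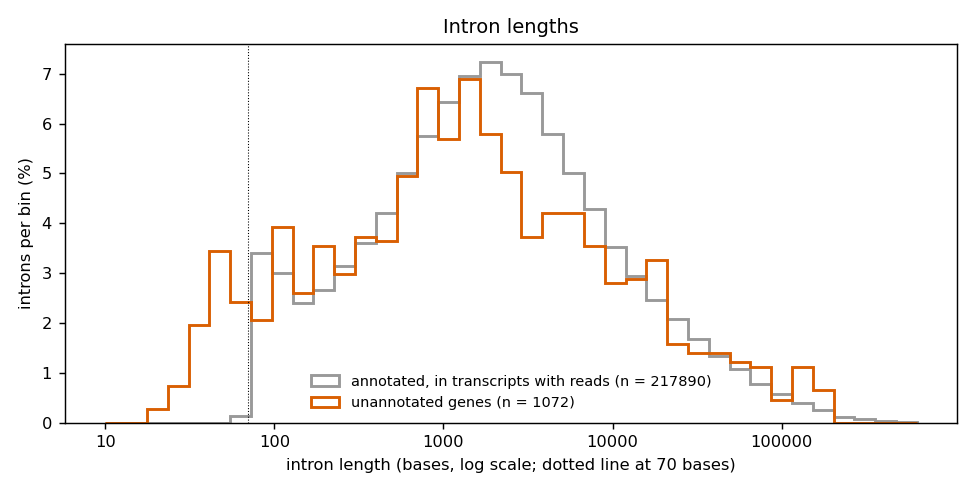
Intron lengths in bases on a log axis (horizontal) and the percentage of introns per bin (vertical) for unannotated genes (orange, n = 1072) and annotated transcripts with reads (grey, n = 217890). The orange curve has a shoulder left of the dotted line at 70 bases, where 8.68% of its introns and 0.0675% of annotated introns lie.

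Splice sites were read where an annotated GENCODE 29 transcript covers them, which gave both ends for 36 introns, 31 of them in antisense genes. Introns usually begin with GT and end with AG, and minor classes begin with GC or run from AT to AC. Of the 36, 25 were GT-AG, 3 were GC-AG, 4 were AT-AC, 3 were AT-AA and 1 was AT-AG. Including those 36, the donor was readable for 80 introns and was GT in 64, AT in 10 and GC in 6. The acceptor was readable for 85, again including the 36, with AG in 77, AC in 5 and AA in 3. These few sites are those under annotated exons and do not stand for the rest.

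Few reads supported most of these genes. All 786 had at least 1 read over the 4 libraries, 273 had 1 read in all, the median was 2 and the highest was 102. Reads occurred in all libraries for 95 genes and in 1 library for 345, which were 119 in the control, 98 in the knockdown, 91 in the azacytidine library and 37 with both. Drawn down to 466337 gene reads per library, the expected number of unannotated genes with a read was 390 for the control, 363 for the knockdown, 350 for the azacytidine library and 295 for the double treatment. For annotated genes these were 25070, 25094, 21847 and 22087, so both kinds were fewer in the azacytidine libraries.

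Gene reads numbered 595158 for the control, 767621 for the knockdown, 466337 for the azacytidine library and 477622 for the double treatment. TARDBP, the gene of TDP-43, had 104 and 72 reads in the control and knockdown libraries and 73 and 43 in the pair with azacytidine, so it was lower in each knockdown library without being absent. All 14 neuronal markers had reads in every library. Sums of 10 pluripotency markers were 616, 702, 429 and 532 CPM, reads scaled to effective library size, in control, knockdown, azacytidine and both treatments. Of these, POU5F1 and NANOG had between 0 and 2 reads, and LIN28A had 129, 200, 99 and 121. Sums of 15 proliferation genes were 1415 and 1287 CPM in the control and knockdown libraries and 215 and 221 in the azacytidine libraries. Sums of 8 neural progenitor markers were 882, 801, 176 and 138, and of 6 astrocyte markers 119, 105, 10.1 and 0. In such bulk libraries, fewer cells of a type and less RNA per cell cannot be told apart.

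Unannotated genes took 1131 reads in the control, 0.190% of gene reads (95% Wilson interval 0.179 to 0.201). The knockdown library held 1729 such reads (0.225%, 0.215 to 0.236), the azacytidine library 726 (0.156%, 0.145 to 0.167) and the library with both treatments 675 (0.141%, 0.131 to 0.152). Intervals cover counting error of independent reads and leave out variation between libraries. They are too narrow where amplified molecules are not independent. The share was thus highest with the knockdown alone, and both azacytidine libraries lay below both libraries without the drug. These genes were defined from reads of the same libraries, and 345 had reads in 1 library only. A library with more reads can thus add more genes and then count its reads in them. The knockdown library had the most gene reads and the azacytidine libraries the fewest. The part of this in the shares and summed ratios, here and by position class, was not tested. Scaled to effective library size, the log2 ratio of summed reads was 0.47 for knockdown against control (95% interval 0.36 to 0.58) and -0.08 in the pair with azacytidine (-0.23 to 0.08). For azacytidine it was -0.31 (-0.45 to -0.18) without the knockdown and -0.86 (-0.99 to -0.73) with it. The first value depended on the scaling and was 0.25 with total reads.

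Same-strand genes had a higher summed level in both knockdown libraries than in their own controls and a lower one in both azacytidine libraries. Their reads numbered 414 in the control, 828 in the knockdown, 171 in the azacytidine library and 215 after both treatments, so the knockdown library was highest and the azacytidine libraries were lowest. The log2 ratio was 0.86 for knockdown against control (95% interval 0.68 to 1.03) and 0.36 in the pair with azacytidine (0.06 to 0.66), where the interval included 0 with total reads and with full-length counts. For azacytidine it was -0.95 (-1.21 to -0.69) without the knockdown and -1.45 (-1.67 to -1.23) with it. The annotated genes that hold them moved less, with 0.38, 0.17, -0.08 and -0.29 in the same order. Per 1000 reads of those genes, the same-strand unannotated genes had 29.2 reads in the control, 40.6 in the knockdown, 16.0 in the azacytidine library and 18.2 after both treatments. Their intervals did not overlap those of the annotated genes in 3 of the 4 comparisons, the exception being the knockdown under azacytidine. The same-strand genes were defined from reads of these same libraries and the annotated genes were not. The intervals do not cover this, and its part in the difference was not tested.

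Gene reads that were not assigned to any transcript made up 38.4% of reads of the same-strand genes in the control, 48.4% in the knockdown, 27.5% in the azacytidine library and 30.7% after both treatments. Over all annotated genes these were 36.1%, 41.5%, 31.9% and 39.6%, and in the annotated genes that hold them 44.4%, 50.2%, 35.1% and 43.4%. These shares were higher in the knockdown than in the control in each of these sets. Among the other position classes, they were also higher in divergent and other intergenic genes. They were lower in antisense genes (44.0% in the control and 35.8% in the knockdown) and in downstream genes (65.4% and 40.7%). After both treatments the share was above the control for all annotated genes. It was below the control for the same-strand genes and for the annotated genes that hold them. The proliferation and progenitor sums given above were lower in both azacytidine libraries. The part of these in the result was not tested.

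Antisense genes had 466 reads in the control, 654 in the knockdown, 415 in the azacytidine library and 343 after both treatments. The knockdown ratio was 0.34 (0.17 to 0.52) without azacytidine and -0.25 (-0.46 to -0.04) with it, so the direction differed between backgrounds. The first interval included 0 with total reads, with TMM factors from genes averaging 20 or more reads and with full-length counts. It stayed above 0 with DESeq2 size factors and with estimated transcript and uniquely assigned counts. The second included 0 with these 2 count kinds. For azacytidine the ratio was 0.16 (-0.03 to 0.35) and -0.43 (-0.62 to -0.24). The annotated genes opposite them had ratios of 0.34, 0.08, -0.05 and -0.30 in the same order. Whether counting used strand was not stated, so reads of overlapping genes on opposite strands are uncertain. Divergent genes had 78, 60, 21 and 37 reads, with a log2 ratio of -1.57 (-2.34 to -0.86) for azacytidine against control and -0.20 (-0.83 to 0.42) in the pair with the knockdown. Of these reads, 55, 21, 6 and 13 came from 1 gene with copies on the X and Y chromosomes, BambuGene7387 and BambuGene7666. Downstream genes had 26, 27, 17 and 11 reads, and other intergenic genes 147, 160, 102 and 69.

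**Figure D3:**
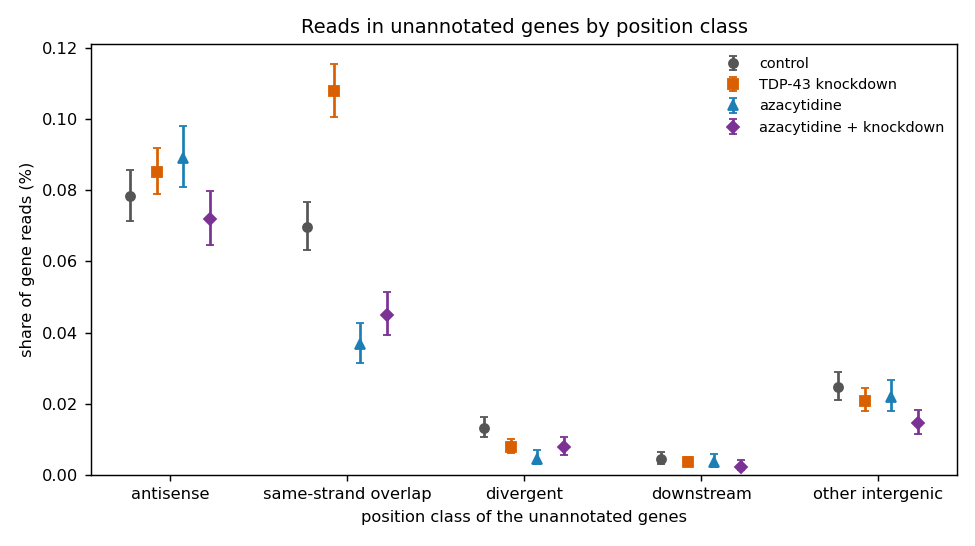
Share of gene reads in percent (vertical axis) for each position class (horizontal axis) in the 4 libraries, with 95% Wilson intervals for counting error as bars. In the same-strand class the knockdown library (0.108%) stands above the control (0.0696%), and the azacytidine libraries (0.0367% and 0.0450%) stand below it, whereas the antisense intervals mostly overlap.

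Single genes were compared between 2 libraries with an exact binomial test and Benjamini-Hochberg adjustment over the 13789 genes that averaged 5 or more reads per library. Only 39 unannotated genes reached that mean. A call needed an adjusted p-value under 0.05, a log2 ratio of at least 1 in size and the same direction in 2 pairs that share no library. Of the 39, 26 were highest in the knockdown library and 14 reached the mean only through it, so their counts describe these genes and support nothing. With the knockdown, 1 of 39 was called higher, against 0.471% of all genes tested, and 0 lower, against 0.305%. With azacytidine, 1 was called higher, against 2.48%, and 2 lower, against 6.17%. Paired crosswise, where the pairs stand for neither treatment, 0 were called higher or lower, against 0.283% and 0.145%. By fold alone crosswise, BambuGene439 and BambuGene6292 (opposite the pseudogene RASA4DP) were 2 higher, against 1.89%, and BambuGene7387 was 1 lower, against 0.805%. By the same test, p-values under 0.05 before adjustment were found for 14 of the 39 in knockdown against control, against 25.8% of all genes, and for 8 in the pair with azacytidine, against 21.8%. For azacytidine they were found for 12 without the knockdown, against 32.7%, and for 17 with it, against 41.8%.

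The gene called higher with the knockdown was BambuGene2010 (chr14:59615097-59621320, hg38, minus strand, 2 exons). It lay in intronic sequence of RTN1, a reticulon that shapes the endoplasmic reticulum in neurons. It had 0 reads in the control, 24 in the knockdown, 0 in the azacytidine library and 8 after both treatments, so both knockdown libraries had reads and neither of the others did. For the knockdown, the exact interval of its log2 ratio began at 2.44 without azacytidine and at 0.80 with it. By the exact binomial test the adjusted p-values were 8.4e-06 and 0.039. The latter lost the call when libraries were scaled by total reads, by TMM factors from genes averaging 20 or more reads, or tested without a minimum of reads. RTN1 itself had 94, 91, 110 and 125 reads and did not follow. The spliced transcript of BambuGene2010 was assigned 0, 0, 0 and 3 reads, so the 24 reads in the knockdown library lay at the locus without matching its transcript.

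Passing the fold alone in both knockdown pairs, without the test, were 5 of 39 genes higher, against 2.13% of all genes, and 0 lower, against 1.76%. Since 14 of the 39 reached the minimum mean only through the knockdown library, these counts only describe the genes. Of the 5, 4 are named here after their values were seen. Beside BambuGene2010, these were BambuGene2598 in NF1, a Ras GTPase-activating protein, with 0, 21, 0 and 1 reads, BambuGene4712 in DCBLD2, a membrane receptor, with 5, 16, 0 and 3, and BambuGene628 in SMYD3, a lysine methyltransferase, with 7, 30, 0 and 3. In the 3 beside BambuGene2010, the pair with azacytidine rested on 1 or 3 reads against 0 and did not pass the test (adjusted p between 0.38 and 0.80, exact binomial).

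Azacytidine called BambuGene3300 higher (chr19:31383324-31392591, hg38, minus strand). It had 3 transcripts of up to 5 exons, opposite the non-coding gene TSHZ3-AS1. It had 3 reads in the control, 0 in the knockdown, 14 in the azacytidine library and 27 after both treatments, so the azacytidine libraries lay above the others. The log2 ratio was 2.55 (95% interval 0.71 to 4.99) without the knockdown, and the interval with it began at 3.27. The exact binomial adjusted p-values were 0.015 and 1.3e-09. TSHZ3-AS1 had 2, 1, 2 and 2 reads. Of the gene reads, 3, 0, 11 and 27 were assigned to its transcripts, and the 4-exon BambuTx2815 took most, with 3, 0, 6.29 and 18.7 estimated reads. Its 5-exon form BambuTx2817 had 0, 0, 1.57 and 6.8.

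Both genes called lower with azacytidine had 0 reads in both azacytidine libraries. BambuGene2198 (chr15:55663553-55668118, minus strand, 2 exons) lay in intronic sequence of PRTG, a cell surface receptor of the developing neural tube. It had 17, 25, 0 and 0 reads. For azacytidine, the exact interval of its log2 ratio ended at -1.72 without the knockdown and at -2.15 with it. The exact binomial adjusted p-values were 0.00087 and 1.8e-05. PRTG also had fewer reads in the azacytidine libraries, with 123 and 217 without the drug and 22 and 10 with it. The transcript of BambuGene2198 was assigned 2, 7, 0 and 0 reads.

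BambuGene1662 (chr13:71809590-71814768, plus strand, 2 exons) lay opposite intronic sequence of DACH1, a transcriptional corepressor of progenitors. It had 11, 34, 0 and 0 reads, at least 2.92-fold and 8.02-fold lower with azacytidine (exact binomial adjusted p = 0.012 and 2.4e-07). All of its reads were assigned to its transcript, whose intron was 50 bases long. DACH1 had 213, 466, 142 and 118 reads. The progenitor and proliferation sums were lower in the same libraries, and their part in these differences was not tested. Passing the fold alone in both azacytidine pairs were 8 of 39 lower, against 10% of all genes, and 1 higher, against 4.86%.

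**Figure D4:**
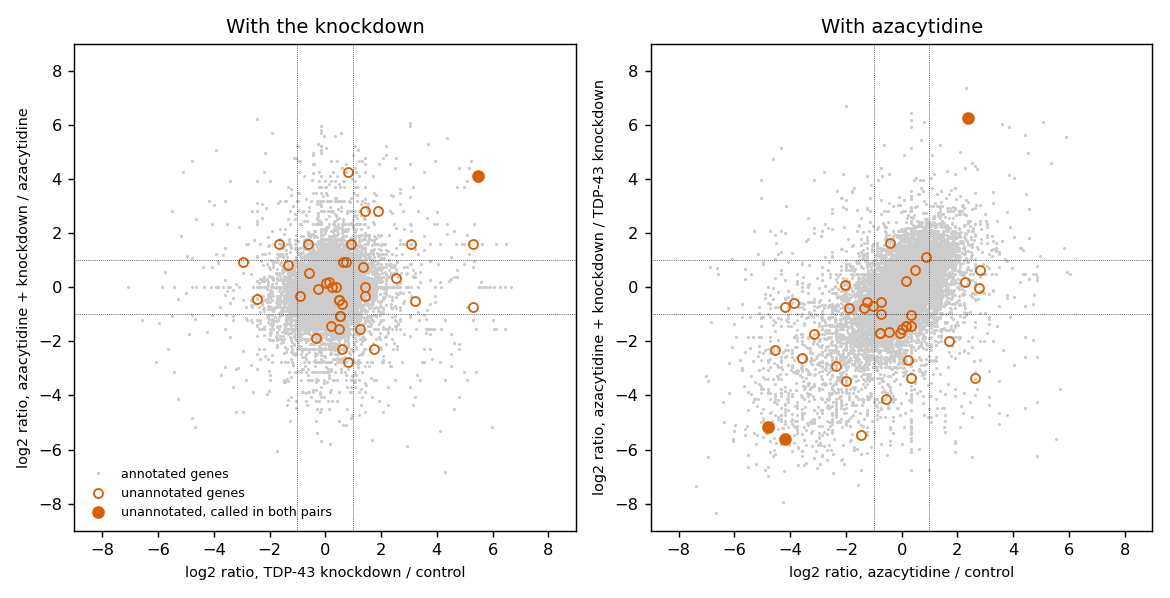
Log2 ratios (pseudocount 0.5) of every gene averaging 5 or more reads in the pair without (horizontal axis) and with (vertical axis) the other treatment, for the knockdown (left panel) and azacytidine (right panel); dotted lines mark a log2 ratio of 1 in either direction. Unannotated genes are orange circles, filled where called in both pairs: 1 at the upper right for the knockdown, and 1 higher and 2 lower for azacytidine.

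Over the 39 genes the median log2 ratio was 0.59 for knockdown against control and 0.03 in the pair with azacytidine, where all 13789 genes had 0.13 and 0.03. For azacytidine it was -0.57 and -1.45, against 0.06 and -0.09 over all genes. As given above, 26 of the 39 were highest in the knockdown library and 14 reached the mean only through it. The filter thus favours high values there, so these medians and the calls below only describe the 39 genes. Calls within 1 pair are given next, with the share of all genes in brackets, and those of 5 or fewer genes are named after their values were seen. In knockdown against control, 8 were higher (5.98%) and 3 lower (2.57%), the latter BambuGene3447 opposite RTN4 and the copies BambuGene7387 and BambuGene7666. In both treatments against azacytidine, 2 were higher (3.71%), BambuGene2010 and BambuGene6491, and 1 lower (3.27%), BambuGene4400. In azacytidine against control, 3 were higher (6.58%), BambuGene3300, BambuGene4145 opposite KCNJ6 and BambuGene6292, and 6 lower (9.98%). In both treatments against knockdown, 1 was higher (9.11%), BambuGene3300, and 13 lower (16.4%). For 31 of the 39 whose neighbour also averaged 5 or more reads, the Spearman correlation of the log2 ratios of the gene and its neighbour across loci was 0.47 and 0.49 in the azacytidine pairs (Pearson 0.47 and 0.49). In the knockdown pairs it was 0.09 and 0.01 (Pearson 0.05 and -0.05). Loci share the libraries and are not independent.

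The unannotated gene with the most reads was BambuGene7495 (chrX:135021679-135026133, plus strand, 2 exons). It ran opposite RTL8B, one of the genes derived from retrotransposon Gag, and its start was 863 bases from that of RTL8B. It had 25 reads in the control, 30 in the knockdown, 22 in the azacytidine library and 25 after both treatments, and the libraries did not separate by either treatment. RTL8B had 3, 2, 3 and 2 reads. Of the gene reads, 1, 22, 19 and 25 were assigned to the transcript, so nearly all control reads at the locus did not match it.

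BambuGene6899 (chr8:76792451-76808453, minus strand) ran opposite ZFHX4, a zinc finger homeobox factor, with 30, 38, 23 and 8 reads. It was lowest after both treatments, with a log2 ratio of -1.68 against the knockdown (exact binomial adjusted p = 0.0039). ZFHX4 had 109 and 209 reads without the drug and 35 and 30 with it. BambuGene5708 (chr6:5999724-6263406, plus strand) ran opposite NRN1, neuritin, which promotes neurite growth, with 12, 11, 18 and 17 reads where NRN1 had 27, 32, 74 and 30. Its transcripts were assigned 1, 0, 1 and 2 of those reads. BambuGene822 (chr10:2603282-2611192, minus strand) ran opposite ENSG00000235281, which had 0 reads in every library, and had 13, 22, 12 and 2 reads itself.

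**Figure D5:**
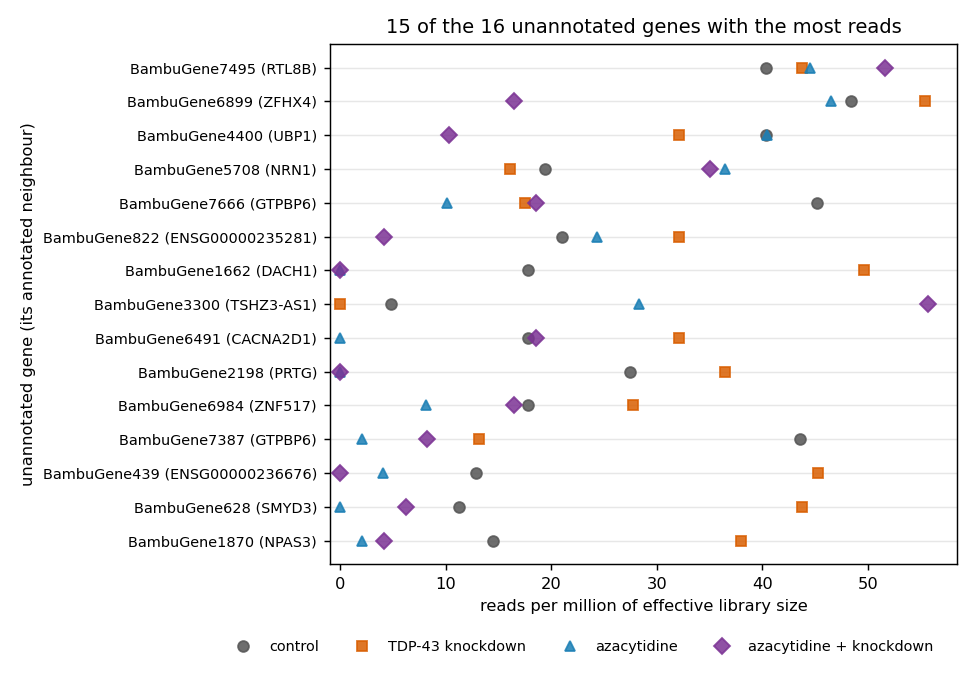
CPM, reads scaled to effective library size (horizontal axis), in the 4 libraries for 15 of the 16 unannotated genes with the most reads, each with its annotated neighbour in brackets; 1 point is 1 library. BambuGene7495 keeps its 4 points close together, BambuGene3300 is high in the azacytidine libraries, and BambuGene1662 and BambuGene2198 are at 0 in both of them.

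Among same-strand genes, BambuGene6491 lay in CACNA2D1, an auxiliary subunit of voltage-gated calcium channels (chr7:82222932-82227996), with 11, 22, 0 and 9 reads, where CACNA2D1 had 144, 412, 246 and 150. It was lowest with azacytidine alone, so the drug libraries did not lie together. BambuGene628 (chr1:246248660-246253593) had a log2 ratio of 1.88 for knockdown against control (exact binomial adjusted p = 0.0053), where SMYD3 had 74, 61, 29 and 12 reads. BambuGene439 (chr1:81609524-81802188, up to 7 exons) overlapped ENSG00000236676, a gene at 0 reads in every library, and had 8, 31, 2 and 0 reads. Its transcripts were assigned 0, 1, 1 and 0 of these. Its span also overlaps the RefSeq span of ADGRL2, a latrophilin receptor.

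The divergent gene with the most reads occurred as copies on the X and Y chromosomes. BambuGene7387 (chrX:319397-323201) and BambuGene7666 (chrY:319577-323201) both start near GTPBP6, a factor of mitochondrial ribosome recycling, and both have an intron of 493 bases. They had 27, 9, 1 and 4 reads and 28, 12, 5 and 9 reads. Near-identical copies can divide reads, so the sum of 55, 21, 6 and 13 is the safer value, and the control library was highest in it. The X copy overlaps the RefSeq span of LINC00685. BambuGene2731 (chr17:82066396-82066901), 509 bases from the start of DUS1L, a tRNA dihydrouridine synthase, had 0, 21, 2 and 1 reads, while DUS1L had 20, 8, 10 and 13. For BambuGene2731, the exact interval of the log2 ratio for knockdown against control began at 2.24. The pair with azacytidine gave 1 read against 2, so the direction did not repeat. BambuGene2571 (chr17:16536394-16544093), 258 bases from the start of ENSG00000306108.1, had 3, 3, 2 and 5 reads against 0 in every library for that gene.

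Past the ends of same-strand genes, BambuGene4302 (chr22:29498960-29504533) began 1346 bases beyond THOC5, an mRNA export factor, with 14, 8, 4 and 3 reads, where THOC5 had 61, 44, 41 and 45. Its transcript was assigned 0, 0, 0 and 1 of them. BambuGene5810 (chr6:98848304-98851848), 952 bases past ENSG00000300505.1, had 4, 5, 3 and 1 reads, all assigned to its transcript. BambuGene1670, 631 bases past PIBF1, had 2, 1, 3 and 2, and BambuGene4743, 516 bases past SEMA5B, a semaphorin of axon guidance, had 0, 3, 1 and 0. PIBF1 had 66, 81, 21 and 4 reads and SEMA5B 52, 166, 29 and 90.

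Among other intergenic genes, BambuGene4400 (chr3:33446604-33455303, plus strand) lay 5233 bases from UBP1, a transcription factor gene on the other strand, with 25, 22, 20 and 5 reads. It was lowest with both treatments (exact binomial adjusted p = 0.043 against azacytidine alone), where UBP1 had 74, 94, 54 and 57. BambuGene264 (chr1:205889640-205896087), 16961 bases from the anion transporter gene SLC26A9, had 8, 9, 9 and 10 reads, nearly even over the libraries, and overlaps the RefSeq span of PM20D1-AS1. SLC26A9 had 0 reads in every library. BambuGene3584 (chr2:171761013-171766710), 10855 bases from the dynein gene DYNC1I2, had 9, 17, 4 and 8 reads, where DYNC1I2 had 173, 427, 143 and 125. BambuGene3384 (chr2:7277099-7287844) had 2, 10, 1 and 1 reads, and its neighbour ENSG00000229727 had 5, 24, 1 and 3, so both were highest with the knockdown alone.

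Of the genes with reads in 1 library only, the highest stood in the knockdown library. BambuGene1856 (chr14:22910903-22913014), opposite RBM23, an RNA-binding protein, had 11 reads there and 0 in the others, and BambuGene3298 (chr19:31085821-31235918), overlapping TSHZ3, a zinc finger factor, also had 11 against 0. For each, the exact interval of the log2 ratio for knockdown against control began at 1.18. The pair with azacytidine gave 0 and 0. BambuGene22 (chr1:8475065-8487330), opposite RERE, a nuclear corepressor, had 7 reads in the control alone, and BambuGene1173 (chr11:8823575-8824106), in DENND2B, had 6 in the knockdown library alone with an intron of 55 bases. RBM23, TSHZ3, RERE and DENND2B had reads in every library. A count of 0 allows up to 3 reads, so such genes were not detected at this depth rather than absent.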

How the data were processed

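Deposited estimated counts per gene and per transcript (total and full-length) and deposited counts of uniquely assigned reads were used; the deposited CPM values served only to check library totals. Per the file headers, alignment used minimap2 and hg38, and Bambu made the extended annotation; versions and settings are not given in the sources used here. Every deposited gene and unique count was even, so counts were divided by 2, rounded, and called reads. Positions came from the extended annotation, promoter sequences and names from RefSeq (GRCh38.p14), and splice sites from GENCODE 29 transcripts. Symbols matched 60555 of 77186 annotated genes.

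Libraries were grouped by their titles. Scaling used TMM factors (edgeR 4.0.16) over all genes. Log2 ratios of single genes use a pseudocount of 0.5, except where an interval (exact, 95%) is given. Tests compare libraries, not conditions. On simulated data with 200 of 13789 genes changed 4-fold, 66.5% were recovered, 92.6% of those with a mean of at least 20 reads, with 0 false calls. Simulated counts were Poisson draws without variation between libraries and without an azacytidine effect. The 0 false calls therefore say nothing about false calls under such variation. Alternatives included DESeq2 1.42.0 and edgeR additive models. Members, lists and tests were chosen with earlier results of these data known. Genes are named by rule: the 6 with the most reads, all called genes, the 3 with the most transcripts and the 3 with the most exons (of at least 20 reads), the 4 highest found in 1 library only, and the 4 highest of each position class. Of the genes so named, and of those passing the fold alone, 1 each is not reported here. Lists of 10 pluripotency, 6 oligodendrocyte, 6 inhibitory neuron, 7 mesenchymal and 5 microglial markers checked the cells beside those in the results: their summed reads in control, knockdown, azacytidine and both were 382, 481, 212 and 258 for pluripotency, 67, 51, 35 and 25 for oligodendrocyte, 17, 6, 5 and 8 for inhibitory neuron, 60, 72, 9 and 3 for mesenchymal, and 7, 5, 2 and 3 for microglial markers.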

Additional observations from a re-analysis of the deposited data

How the results depend on the processing

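No paired analysis was possible because each group has 1 library, so replicate numbers pair nothing; the 2 pairs per treatment and the additive models compare libraries within the other treatment instead. The call with the knockdown (1 gene) became 0 with total reads, with TMM factors from genes averaging 20 or more reads, with a minimum mean of 20 reads (2 unannotated genes tested), without a filter, with uniquely assigned or full-length counts, and in the additive edgeR and DESeq2 models (4 and 1 genes at an unadjusted p under 0.05). It became 2 of 102 tested without halving, where 2.31% of all genes were called, and 5 of 39 by fold alone (3.89%). The 3 calls with azacytidine became 0 with a minimum mean of 20 reads, with full-length counts and in the DESeq2 model (3 genes at an unadjusted p under 0.05), 1 of 16 with uniquely assigned counts (2.99% of all genes), 10 of 102 without halving (12.0%) and 9 of 39 by fold alone (14.9%), and stayed at 3 in the edgeR model. Crosswise, fold alone gave 3 of 39 (2.69%). Other settings left these counts alone. The cause of these shifts was not tested, except that stricter means and other count kinds leave fewer genes to test.

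The share of reads in unannotated genes was 0.357%, 0.439%, 0.285% and 0.236% of full-length counts (control, knockdown, azacytidine, both), 0.323%, 0.404%, 0.269% and 0.258% of uniquely assigned counts, and 0.170%, 0.211%, 0.137% and 0.128% without the 5 genes with the most reads. With estimated transcript counts it was 0.156% with both treatments. The order of the libraries was the same in each. Genes expected at equal depth with at least 2 reads numbered 159, 185, 119 and 125, with at least 5 reads 39.7, 59.0, 29 and 26.9, and with full-length counts 235, 230, 203 and 160, so the knockdown library was highest at the stricter minimums. The downstream class held 7 genes with a limit of 1000 bases and 42 with 20000.

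The log2 ratio of summed reads for knockdown against control over all unannotated genes was 0.25 with total reads, 0.35 with DESeq2 size factors, 0.27 with TMM factors from genes averaging 20 or more reads and 0.34 with full-length counts. For same-strand genes it was 0.63 with total reads, 0.66 with those TMM factors, 0.65 with estimated transcript counts and 0.61 with uniquely assigned counts. For antisense genes it was 0.12, 0.15, 0.59 and 0.59 in the same order. In the pair with azacytidine, same-strand genes had 0.30 with total reads and 0.49 with full-length counts, with intervals that included 0 (upper bounds 0.59 and 0.99), and full-length counts gave -0.28 over all and -0.59 for antisense genes. For both treatments against knockdown the value over all genes was -0.67 with total reads and -0.70 with estimated transcript counts, and for same-strand genes -1.06 with estimated transcript and -1.08 with uniquely assigned counts. For azacytidine against control, estimated transcript counts gave 0.39 for antisense genes. No value turned its direction. Depth limits the tests: 39 of 786 unannotated genes averaged 5 or more reads, and 2 reached 20.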

Other observations

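Pairs of unannotated genes on different chromosomes had identical read numbers in all 4 libraries. BambuGene1299 and BambuGene6459 each had 7 reads in the control, 11 in the knockdown, 3 in the azacytidine library and 2 after both treatments. BambuGene4644 and BambuGene4983 each had 8, 13, 7 and 3.

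Several annotated genes held more than 1 same-strand unannotated gene. ANK2, an ankyrin of the neuronal membrane skeleton, held 2 with 52 reads together, beside 1069, 1506, 430 and 505 reads of its own in that order of libraries. ERC2, an active zone scaffold, held 2 with 41 reads beside 36, 95, 48 and 68 of its own, and PTPRG, a receptor-type phosphatase, held 2 with 33 reads beside 179, 305, 61 and 95.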
